A study of Mus musculus with 16 samples.

Results

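The genes described here are 9 mouse collagen genes whose products form beaded microfilaments, form networks, sit on the surface of collagen fibrils or span the cell membrane: *Col6a1*, *Col6a2*, *Col6a3*, *Col8a1*, *Col8a2*, *Col12a1*, *Col13a1*, *Col14a1* and *Col16a1*. They were taken by name and are 9 of the 44 collagen genes and of the 49452 genes in the tables. All 9 names were found.

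RNA of tdTomato-positive cells, sorted from the left lung of 16 mice in 4 groups of 4, was sequenced to measure gene expression. *Acta2-tdT* mice carry Acta2-CreERT2; tdTomatoflox, and *Pdgfra-tdT* mice carry Pdgfra-CreERT2; tdTomatoflox. CreERT2 is a recombinase that acts once tamoxifen is given, so that cells with an active *Acta2* or *Pdgfra* promoter at that time, and their descendants, keep the red fluorescent protein. Each line received saline or bleomycin, a drug that injures the lung and leads to fibrosis, and lungs were taken after 14 days, at 11 weeks of age. All mice received tamoxifen, but by a different route and at a different time in each line: *Acta2-tdT* mice ate food with 400 mg/kg from 5 days after the instillation, and *Pdgfra-tdT* mice had 5 injections of 3 mg into the peritoneum at 6 weeks of age. A comparison of the lines therefore also compares those regimens, and the *Acta2* promoter was read out in lungs that had already been instilled. The values are FPKM (fragments of a gene, divided by its length and by the number of mapped fragments), and each library is a bulk of sorted cells, in which fewer cells of a type and less RNA per cell cannot be told apart.

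Collagens are trimers whose chains wind around one another where glycine recurs in a fixed repeat, Gly-X-Y. In collagen VI, the α1, α2 and α3 chains made by *Col6a1*, *Col6a2* and *Col6a3* assemble into one molecule, and these molecules join end to end into beaded microfilaments close to the cell surface and around basement membranes. Collagen VIII, from *Col8a1* and *Col8a2*, is a short-chain collagen of vessel walls and other networks. Collagens XII, XIV and XVI are fibril-associated collagens with interrupted triple helices, which lie along fibrils or link them to other matrix. Collagen XIII is a transmembrane collagen of cell-matrix contacts. In lung these genes are mainly those of fibroblasts, smooth muscle cells and related mesenchymal cells.

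The 9 coding sequences differed in how much of them can form a triple helix. With the longest annotated coding sequence of each gene (GENCODE, GRCm38), and a run taken as at least 5 triplets in a row that begin with a glycine codon (GGN), *Col6a1* had 1025 codons with a longest run of 87 triplets, and *Col6a2* had 1034 codons with a longest run of the same 87 triplets. *Col6a3*, the long chain of collagen VI, had 2677 codons and a longest run of 45 triplets, and its runs held 9.75% of its codons. Runs held 40.7% of the codons of *Col8a1* and 48.5% of those of *Col8a2*. In *Col12a1*, the longest of the 9 with 3065 codons, runs held 7.64% of the codons and began only at codon 2749, and in *Col14a1* they held 13.01% of 1798 codons. *Col16a1* had 17 runs, the most of the 9, over 57.5% of 1580 codons, and *Col13a1* had 7 runs over 70.6% of 739 codons. In-frame codons for arginine, glycine and aspartate, the tripeptide that many integrins bind, occurred 3 times in *Col6a1* and 5 times in *Col6a2*, all within runs, and 0 times in *Col8a1* and *Col13a1*.

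**Figure D1:**
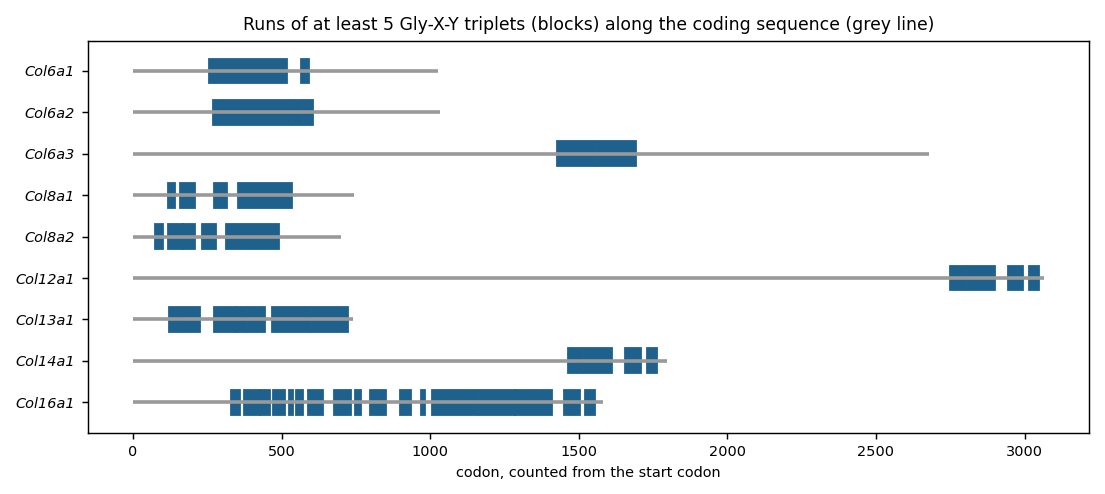
Coding sequence of each of the 9 genes as a grey line, in codons counted from the start codon, with blocks where at least 5 triplets in a row begin with a glycine codon. The blocks lie near the end of the line in *Col12a1* and *Col14a1*, in the middle in the 3 collagen VI genes and along most of it in *Col13a1*.

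The first 20 triplets of the longest run are shown for 5 genes to make that pattern visible in the chains whose levels the results turn on. Each stretch is 180 bases of coding sequence, 5′ to 3′, and capitals mark the first codon of each triplet, a glycine codon. Glycine codons elsewhere in a triplet are in lower case. They start at codon 256 of *Col6a1*, 1558 of *Col6a3*, 352 of *Col8a1*, 2805 of *Col12a1* and 1006 of *Col16a1*.
Col6a1: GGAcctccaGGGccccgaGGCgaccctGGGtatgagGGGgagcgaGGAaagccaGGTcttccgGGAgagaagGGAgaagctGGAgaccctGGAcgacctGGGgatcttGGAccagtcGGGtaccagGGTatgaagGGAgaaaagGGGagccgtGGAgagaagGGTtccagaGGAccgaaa
Col6a3: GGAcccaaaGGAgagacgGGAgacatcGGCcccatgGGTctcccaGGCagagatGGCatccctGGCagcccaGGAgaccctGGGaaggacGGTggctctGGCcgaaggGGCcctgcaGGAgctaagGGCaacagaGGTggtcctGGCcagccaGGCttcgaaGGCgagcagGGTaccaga
Col8a1: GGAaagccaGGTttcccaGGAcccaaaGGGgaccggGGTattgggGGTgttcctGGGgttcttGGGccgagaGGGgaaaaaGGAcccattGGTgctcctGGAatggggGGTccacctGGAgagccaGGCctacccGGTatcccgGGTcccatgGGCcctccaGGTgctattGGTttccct
Col12a1: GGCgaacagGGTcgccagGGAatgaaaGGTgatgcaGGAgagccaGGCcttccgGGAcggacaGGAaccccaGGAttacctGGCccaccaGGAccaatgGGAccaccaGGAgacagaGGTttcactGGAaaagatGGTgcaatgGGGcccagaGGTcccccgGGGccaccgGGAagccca
Col16a1: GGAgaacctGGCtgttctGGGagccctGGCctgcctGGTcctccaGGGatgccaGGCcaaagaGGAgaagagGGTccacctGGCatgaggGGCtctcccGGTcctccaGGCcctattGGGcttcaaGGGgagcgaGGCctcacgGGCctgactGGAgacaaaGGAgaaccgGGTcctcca

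In GRCm38, *Col6a1* (ENSMUSG00000001119) lies at chr10:76708792-76726168 and *Col6a2* (ENSMUSG00000020241) at chr10:76595762-76623630, both on the minus strand of chromosome 10. *Col6a3* (ENSMUSG00000048126) lies at chr1:90765923-90843971, *Col8a1* (ENSMUSG00000068196) at chr16:57624258-57754737, *Col12a1* (ENSMUSG00000032332) at chr9:79598991-79718831 and *Col13a1* (ENSMUSG00000058806) at chr10:61838236-61979108, all on the minus strand. *Col8a2* (ENSMUSG00000056174) at chr4:126286793-126314330, *Col14a1* (ENSMUSG00000022371) at chr15:55307750-55520803 and *Col16a1* (ENSMUSG00000040690) at chr4:130047840-130099283 are on the plus strand. Genes on the opposite strand overlap *Col12a1* by 2132 bases (4930562D21Rik), *Col13a1* by 801 bases (Gm5750) and *Col14a1* by 2906, 784 and 3848 bases (1700040F17Rik, Gm18787 and Gm49257). Gm36970 overlaps *Col6a3* by 1859 bases on the same strand, where counting by strand could not separate them. Whether the authors counted reads by strand is not given in the sources used here, so the FPKM of these 4 genes may include reads of a partner.

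The libraries differed in more than these genes. The summed FPKM of nuclear protein-coding genes was 36688 to 60947 in *Acta2-tdT* saline mice, 241916 to 466183 with bleomycin, 29964 to 61168 in *Pdgfra-tdT* saline mice and 29727 to 147467 with bleomycin. Each value is therefore given both as FPKM and as scaled FPKM, in which every mouse was brought to the same protein-coding sum of 51979, the median of the 16 mice. Olfactory and vomeronasal receptor genes, which serve here as a measure of the background, had a median of 0.319 to 0.328 FPKM in *Acta2-tdT* saline mice, 0.0110 to 0.116 with bleomycin, 0.172 to 0.330 in *Pdgfra-tdT* saline mice and 0.0909 to 0.311 with bleomycin. *Acta2* followed the labels, at 222 ± 77.7 FPKM in *Acta2-tdT* saline mice against 7.28 ± 3.60 in *Pdgfra-tdT* saline mice, and 1989 ± 870 against 5.48 ± 9.29 with bleomycin (SD, n = 4). *Pdgfra* was higher in *Pdgfra-tdT* than in *Acta2-tdT* saline mice (2.79 ± 0.797 against 0.386 ± 0.125 FPKM), but with bleomycin it was lower in the *Pdgfra-tdT* libraries (1.70 ± 0.658 against 7.87 ± 3.94 FPKM; limma log2 difference 1.60, SE 0.47, adjusted p = 0.00894), and with scaled FPKM that difference had the opposite sign and was not called (-0.30, adjusted p = 0.407). In what follows, *Pdgfra-tdT* therefore means the libraries labelled so. The 10 fibroblast markers had a median sum of 9.77 FPKM with saline and 14.7 with bleomycin in *Pdgfra-tdT* mice, below the 27.7 and 904 of the *Acta2-tdT* groups. Markers of other cells were present as well. The 10 macrophage markers summed to a median of 154 FPKM in *Acta2-tdT* saline and 4910 in *Acta2-tdT* bleomycin mice (180 and 778 scaled), the 6 neutrophil markers to 994 and 2381 FPKM (1068 and 390 scaled), and the 7 endothelial markers reached 360 FPKM in *Pdgfra-tdT* saline mouse 3 and 989 in *Pdgfra-tdT* bleomycin mouse 5. What part these cells have in the results below was not tested.

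Collagen VI was the most abundant of the 9-gene group in *Acta2-tdT* cells, and all 3 of its chains rose with bleomycin in that line on both scales. *Col6a1* was at 1.41, 1.16, 1.70 and 1.54 FPKM in the saline mice and 43.9, 45.4, 102 and 140 FPKM in the bleomycin mice. *Col6a2* was at 3.804, 3.35, 4.23 and 5.60 FPKM with saline and 200.4, 136, 419 and 546 FPKM with bleomycin. *Col6a3*, whose product carries the large globular ends of the molecule, was at 1.11, 1.17, 1.23 and 0.951 FPKM with saline and 99.7, 45.2, 104.98 and 125 FPKM with bleomycin. For each chain the lowest bleomycin mouse lay far above the highest saline mouse, and mice 7 and 8 had the highest values of *Col6a1* and *Col6a2*. The group means differed 57.0-fold for *Col6a1*, 76.7-fold for *Col6a2* and 84.1-fold for *Col6a3*. In scaled FPKM the group means differed 6.66-fold, 8.96-fold and 9.85-fold. The groups still did not overlap. Scaled *Col6a2* ran from 4.44 to 5.21 in saline and from 29.2 to 60.9 in bleomycin mice, scaled *Col6a1* from 1.32 to 1.93 and from 7.03 to 15.6, and scaled *Col6a3* from 0.811 to 1.66 and from 9.71 to 15.95. On log2(scaled FPKM + 1), limma gave differences of 2.14 for *Col6a1* (SE 0.25, adjusted p = 7.2e-05), 2.86 for *Col6a2* (SE 0.29, adjusted p = 3.4e-05) and 2.59 for *Col6a3* (SE 0.22, adjusted p = 2.3e-05). Cell type markers moved in the same mice on that scale. Of those tested, 7 of 8 fibroblast and 7 of 9 macrophage markers were called higher with bleomycin (median log2 differences 1.51 and 1.97), 5 of 5 neutrophil markers lower (-1.61), 4 of 7 pericyte markers lower and 1 higher (-0.77), and of 9 smooth muscle markers 3 higher and 3 lower. The summed scaled FPKM had a median of 33.0 and 137 for the fibroblast, 42.1 and 10.4 for the pericyte and 604 and 460 for the smooth muscle markers, with saline and bleomycin. Their part in the differences of the 9 genes was not tested.

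**Figure D2:**
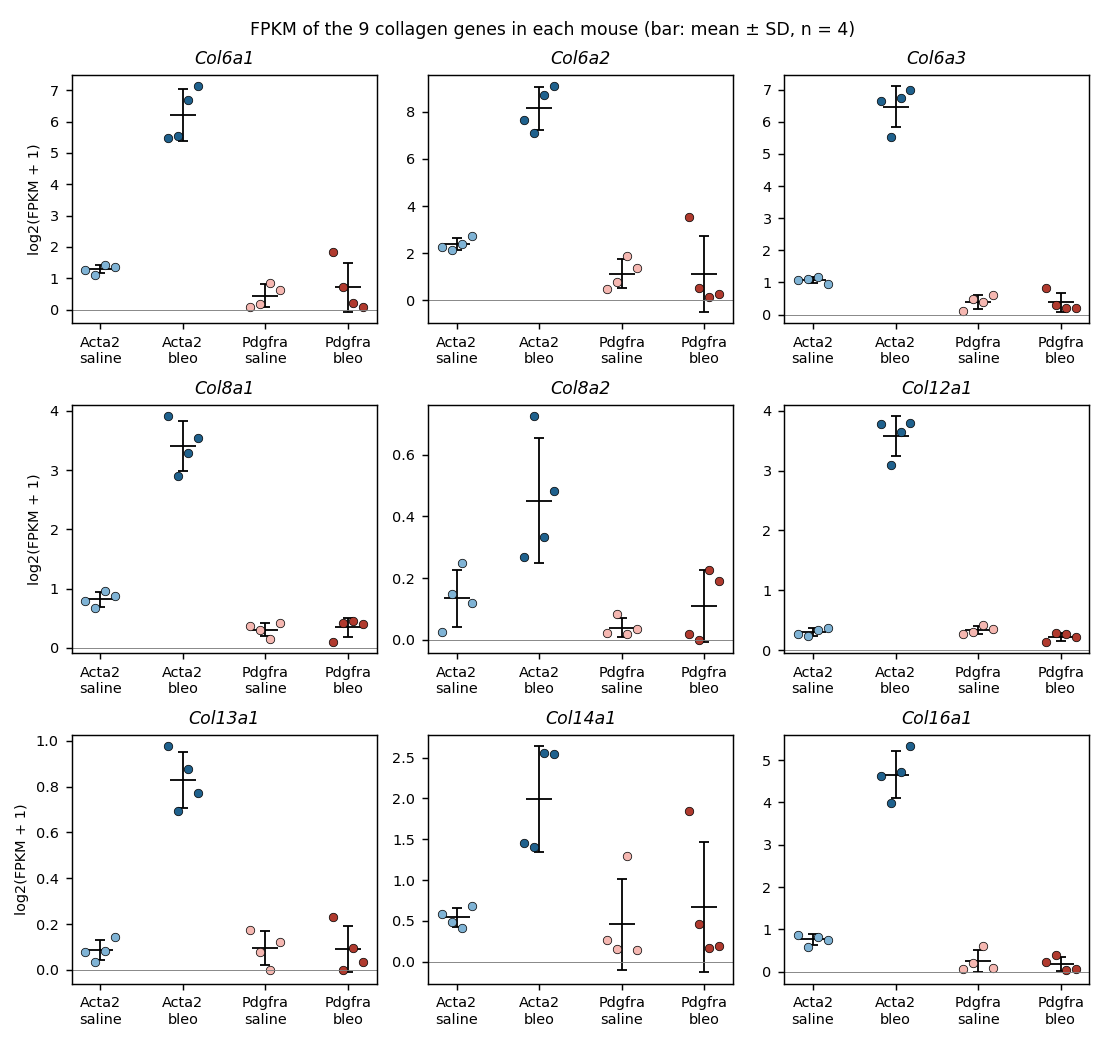
Each panel shows 1 gene, with log2(FPKM + 1) on the vertical axis and the 4 groups on the horizontal axis; points are mice and bars the mean ± SD of the 4 mice. In every gene but *Col14a1* the 4 *Acta2-tdT* bleomycin mice lie above the mice of the other groups; the axes differ between panels.

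Of the fibril-associated collagens, *Col12a1* and *Col16a1* rose with bleomycin in *Acta2-tdT* cells on both scales, and *Col14a1* with FPKM alone. *Col12a1*, whose product binds fibrils of collagen I, was at 0.203, 0.186, 0.267 and 0.295 FPKM in *Acta2-tdT* saline mice, below the receptor gene median of each library. With bleomycin it was at 12.7, 7.53, 11.5 and 12.9 FPKM, and in scaled FPKM it went from 0.251 to 0.280 with saline to 1.36 to 2.04 with bleomycin. The scaled group means differed 6.01-fold, and limma gave a difference of 1.04 on log2(scaled FPKM + 1) (SE 0.12, adjusted p = 7.0e-05, and 0.000582 with no filter). *Col16a1*, the collagen with the most interrupted helix of the 9, was at 0.836, 0.508, 0.770 and 0.692 FPKM with saline and 23.5, 14.8, 25.3 and 39.2 FPKM with bleomycin. Scaled, it was 0.590 to 1.15 and 2.98 to 4.37, with no overlap and a 4.38-fold difference of the means. The limma log2 difference was 1.33 (SE 0.17, adjusted p = 0.000137, and 0.000775 with no filter). *Col14a1*, a close relative of *Col12a1* found with fibrils of mature tissue, was at 0.499, 0.405, 0.337 and 0.609 FPKM with saline and 1.75, 1.64, 4.88 and 4.84 FPKM with bleomycin. Those FPKM did not overlap (log2 difference 1.45, SE 0.30, adjusted p = 0.00109), but in scaled FPKM the groups overlapped, at 0.353 to 0.683 and 0.280 to 0.576, and the difference was -0.09 (95% interval -0.33 to 0.15, adjusted p = 0.475). So *Col14a1* rose with FPKM and had a difference of the opposite sign, not called, with scaled FPKM.

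Of the collagen VIII genes, *Col8a1* had the higher FPKM. It was at 0.723, 0.584, 0.933 and 0.830 FPKM in *Acta2-tdT* saline mice and 14.0, 6.47, 8.79 and 10.6 FPKM with bleomycin. The FPKM rose (limma log2 difference 2.59, SE 0.27, adjusted p = 2.0e-05), while in scaled FPKM the groups, at 0.708 to 0.991 and 1.04 to 2.25, did not overlap but differed by 0.37 on the log2 scale (95% interval -0.02 to 0.76, adjusted p = 0.0914), which was not called. *Col8a2*, the second chain, was at 0.0167 to 0.188 FPKM with saline and 0.203 to 0.653 FPKM with bleomycin, and in scaled FPKM the 2 groups overlapped. The transmembrane collagen gene *Col13a1* was at 0.0249 to 0.103 FPKM with saline and 0.619 to 0.967 FPKM with bleomycin. In scaled FPKM its groups overlapped too, at 0.0353 to 0.0882 and 0.0788 to 0.155. Neither gene reached 1 FPKM in any of the 16 mice, and both had so few fragments that the lower bound of Cufflinks was 0 in several saline and *Pdgfra-tdT* mice, including all 4 *Acta2-tdT* saline mice for *Col13a1*.

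**Figure D3:**
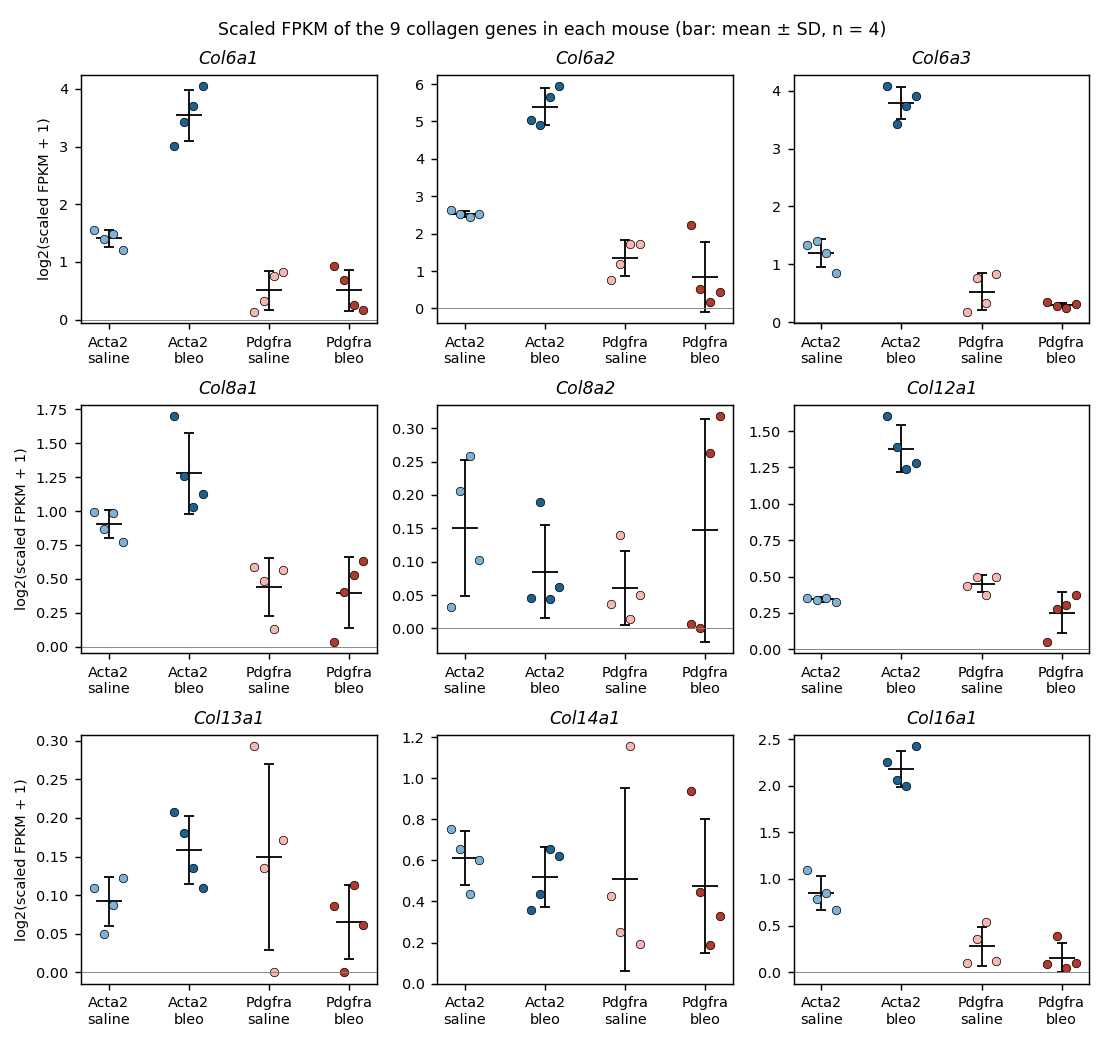
The same panels with log2(scaled FPKM + 1), where each mouse was brought to the same sum of nuclear protein-coding FPKM. The 4 *Acta2-tdT* bleomycin mice remain above all other mice in the 3 collagen VI genes, *Col8a1*, *Col12a1* and *Col16a1*, and fall among them in *Col14a1*, *Col8a2* and *Col13a1*.

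The filter on low values, which asked for 1 FPKM or more in 4 or more of the 8 mice compared, passed 7 of the 9 genes for bleomycin in *Acta2-tdT* mice, all but *Col8a2* and *Col13a1*. Of these 7, *Col6a1* and *Col6a2* reached 1 FPKM in all 8 mice and *Col8a1*, *Col12a1*, *Col14a1* and *Col16a1* only in the bleomycin mice, so their count is a description. With the filter, limma called 7 of the 7 higher with FPKM, where 70.4% of all genes tested were called higher, and 5 of the 7 higher with scaled FPKM, where 24.5% of all genes were called higher and 32.5% lower. With no filter, all 9 could be tested: 8 were called higher with FPKM (all but *Col8a2*), against 23.8% of all genes, and 5 with scaled FPKM (*Col6a1*, *Col6a2*, *Col6a3*, *Col12a1* and *Col16a1*), against 6.45% of all genes. None of the 9 was called lower on either scale. The median log2 difference of all genes tested with the filter was 1.76 with FPKM and -0.01 with scaled FPKM.

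With bleomycin in both lines, collagen VI was higher in *Acta2-tdT* than in *Pdgfra-tdT* cells on both scales. In the *Pdgfra-tdT* bleomycin mice, *Col6a1* was at 2.54, 0.641, 0.163 and 0.0686 FPKM, *Col6a2* at 10.6, 0.445, 0.115 and 0.212 FPKM and *Col6a3* at 0.765, 0.218, 0.163 and 0.142 FPKM. Mouse 5 was the highest for each chain, yet it remained below every *Acta2-tdT* bleomycin mouse. Scaled group means were 24.4-fold higher in *Acta2-tdT* mice for *Col6a1*, 36.8-fold for *Col6a2* and 56.6-fold for *Col6a3*, and limma gave scaled log2 differences of 3.04 (SE 0.36, adjusted p = 0.000732), 4.55 (SE 0.55, adjusted p = 0.000789) and 3.49 (SE 0.31, adjusted p = 0.00027). With no filter limma gave them adjusted p of 0.00611, 0.00789 and 0.00258. *Col16a1* was at 0.0281 to 0.322 FPKM and *Col12a1* at 0.0989 to 0.219 FPKM in the *Pdgfra-tdT* mice, with scaled log2 differences of 2.03 (SE 0.24, adjusted p = 0.000732) and 1.13 (SE 0.19, adjusted p = 0.0035). With no filter limma gave adjusted p of 0.00503 for *Col16a1* and 0.0272 for *Col12a1*. *Col8a1*, at 0.0676 to 0.373 FPKM in the *Pdgfra-tdT* mice, differed by 0.88 (SE 0.23, adjusted p = 0.0162), a call that was lost with no filter (adjusted p = 0.0783). *Col14a1* was the exception: *Pdgfra-tdT* bleomycin mouse 5, at 2.60 FPKM, lay within the *Acta2-tdT* range of 1.64 to 4.88 FPKM, and the scaled difference was 0.04 (95% interval -0.34 to 0.42).

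With the filter, 7 of the 9 genes were tested between the lines with bleomycin, all of them through the *Acta2-tdT* bleomycin mice. Of these, 7 were called higher in *Acta2-tdT* mice with FPKM, where 71.0% of all genes were, and 6 with scaled FPKM, where 17.2% were. With no filter, 7 of the 9 were called higher with FPKM, against 19.4% of all genes, and 5 with scaled FPKM, against 1.45%. *Col13a1* was among the former (0.619 to 0.967 FPKM against 0 to 0.173 FPKM, log2 difference 0.74, adjusted p = 0.0179) but not the latter. Smooth muscle markers, which the *Acta2* label selects, summed to a median of 460 scaled FPKM in *Acta2-tdT* and 4.08 in *Pdgfra-tdT* bleomycin mice (9 of 9 tested called higher), and the fibroblast markers to 137 and 14.5 (6 of 8 higher). Markers of other cells differed as well: neutrophil markers summed to 390 and 31.9 (3 of 5 higher), macrophage markers to 778 and 1480 (2 of 10 higher), pericyte markers to 10.4 and 2.91 (2 of 6 higher) and endothelial markers to 3.78 and 69.9 (5 of 6 lower). Their part in the differences of the member genes was not tested.

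**Figure D4:**
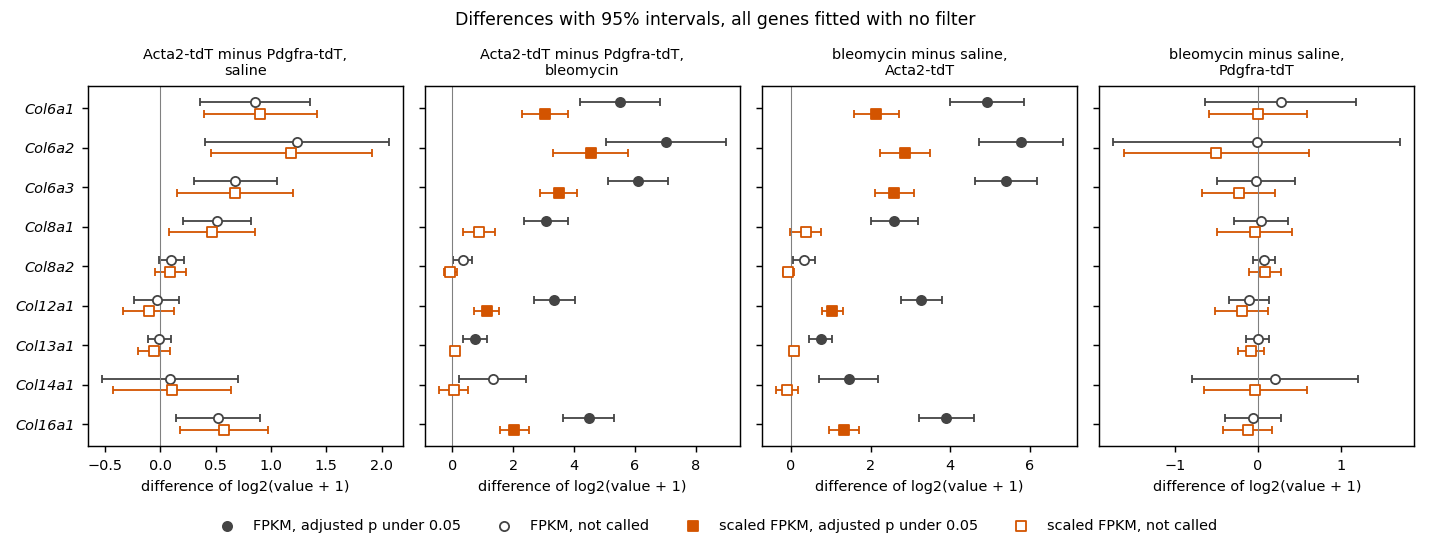
Differences of log2(value + 1) with 95% intervals from limma for the 9 genes in the 4 comparisons, fitted with no filter so that every gene is shown; circles are FPKM, squares scaled FPKM, and filled symbols mark an adjusted p under 0.05. Filled squares are seen for *Col6a1*, *Col6a2*, *Col6a3*, *Col12a1* and *Col16a1* in both comparisons that involve *Acta2-tdT* bleomycin mice, and no symbol is filled in the saline and *Pdgfra-tdT* panels; the horizontal axes differ.

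With saline, limma called none of the 9 genes between the lines. *Col6a1* was at 1.16 to 1.70 FPKM in *Acta2-tdT* mice and at 0.0559, 0.142, 0.814 and 0.536 FPKM in *Pdgfra-tdT* mice. *Col6a2* was at 3.35 to 5.60 FPKM against 0.400, 0.736, 2.73 and 1.60 FPKM. Neither gene overlapped between the lines on either scale, and the scaled group means were 3.69-fold and 2.91-fold higher in *Acta2-tdT* mice. *Col6a3*, at 0.951 to 1.23 against 0.0756 to 0.541 FPKM, and *Col8a1*, at 0.584 to 0.933 against 0.109 to 0.332 FPKM, did not overlap either. Only *Col6a1* and *Col6a2* passed the filter, and limma called neither: the log2 differences were 0.85 (SE 0.20, adjusted p = 0.0784) and 1.23 (SE 0.35, adjusted p = 0.14) with FPKM, and 0.90 (95% interval 0.40 to 1.40, adjusted p = 0.0674) and 1.18 (95% interval 0.46 to 1.90, adjusted p = 0.0916) with scaled FPKM. The unadjusted p of both was under 0.05 on both scales. Of all genes tested with the filter, 2.72% were called higher in *Acta2-tdT* mice with FPKM and 3.02% with scaled FPKM. With no filter, 0 of the 9 genes were called on either scale by limma, although *Col6a1*, *Col6a2*, *Col6a3*, *Col8a1* and *Col16a1* had an unadjusted p under 0.05 on both. Over all 43598 genes, 3387 had such a p with FPKM and 3464 with scaled FPKM, and 0.126% of all genes were called higher with FPKM and 0.206% with scaled FPKM. Both the members and all genes depended on mouse 3 of the *Pdgfra-tdT* saline group, which also held the endothelial markers. Without it both chains were called, with FPKM (log2 differences 0.99, adjusted p = 0.00781, and 1.49, adjusted p = 0.00907) and with scaled FPKM (0.98, adjusted p = 0.00915, and 1.31, adjusted p = 0.00779), but the genes called higher over all 8153 tested then went from 222 to 2043 with FPKM and from 246 to 1984 with scaled FPKM. The other 5 genes overlapped between the lines in FPKM, so 4 of the 9 were higher without overlap, against 4.58% of all 43598 genes. In scaled FPKM 5 of the 9 were, against 3.64% of all genes: *Col16a1* did not overlap there either, at 0.590 to 1.15 in *Acta2-tdT* and 0.0709 to 0.455 in *Pdgfra-tdT* mice. Nor did *Col12a1*, which was lower in *Acta2-tdT* mice, at 0.251 to 0.280 against 0.296 to 0.411. Its FPKM was below the receptor gene median in every *Acta2-tdT* saline mouse and in *Pdgfra-tdT* saline mice 1, 2 and 4. Among markers tested with scaled FPKM, 9 of 9 smooth muscle, 3 of 4 pericyte and 3 of 5 neutrophil markers were called higher in *Acta2-tdT* mice. Of 6 fibroblast markers 1 was higher and 1 lower, and none was called in the other marker lists. Their part in the differences of the 9 genes was not tested.

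In *Pdgfra-tdT* cells no change with bleomycin was detected in any of the 9 genes. None of them passed the filter, as none reached 1 FPKM in 4 of the 8 mice. With no filter limma called 0 of the 9 on either scale, 0 had an unadjusted p under 0.05, and of all 42954 genes 0.00466% were called in either direction with FPKM and 0.00931% with scaled FPKM. *Col6a2* was at 0.400 to 2.73 FPKM with saline and 0.115 to 10.6 FPKM with bleomycin, and its scaled log2 difference was -0.50 with a 95% interval of -1.62 to 0.61, wide enough to hold a change in either direction. In scaled FPKM *Col12a1* was the only gene whose groups did not overlap, at 0.296 to 0.411 with saline and 0.0349 to 0.296 with bleomycin (log2 difference -0.20, adjusted p = 0.828). For *Col6a1* the scaled interval was -0.59 to 0.59 and for *Col6a3* it was -0.67 to 0.21. *Col14a1* was at 0.197, 0.111, 1.44 and 0.101 FPKM with saline and 2.60, 0.378, 0.119 and 0.146 FPKM with bleomycin. The highest mouse of each group, saline mouse 3 and bleomycin mouse 5, was the one with endothelial markers at 360 and 989 FPKM. In *Pdgfra-tdT* mice 1 to 7 of the 9 genes exceeded the receptor gene median of their library, against 6 of 9 in every *Acta2-tdT* saline mouse and 9 of 9 in every *Acta2-tdT* bleomycin mouse. The 10 macrophage markers summed to a median of 63.2 FPKM with saline and 1778 with bleomycin in this line (102 and 1480 scaled). Limma called 0 of the 6 tested, but 6 of 6 had an unadjusted p under 0.05, with a median log2 difference of 3.51 with FPKM and 3.05 with scaled FPKM, and their part in the values of the 9 genes was not tested. The bounds of Cufflinks correspond to roughly 6 to 215 fragments for *Col6a1* in these 8 mice.

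The effect of bleomycin differed between the lines for 5 of the 9 genes on both scales when tested as an interaction over the 16 mice. For *Col6a2* the difference of the 2 effects was 5.78 on the log2 scale with FPKM (SE 0.98, adjusted p = 0.000611) and 3.36 with scaled FPKM (SE 0.63, adjusted p = 0.0113). It was 2.82 with scaled FPKM for *Col6a3* (SE 0.34, adjusted p = 0.000354), 2.14 for *Col6a1* (SE 0.40, adjusted p = 0.011), 1.46 for *Col16a1* (SE 0.25, adjusted p = 0.00718) and 1.24 for *Col12a1* (SE 0.17, adjusted p = 0.000935). With no filter limma gave these 5 genes adjusted p of 0.00062 to 0.0318 with scaled FPKM. The scaled call of *Col6a1* was lost with a pseudocount of 0.1 (2.63, adjusted p = 0.0614) and with scaling to a larger sum (2.66, adjusted p = 0.0761). *Col8a1* was called with FPKM (2.56, adjusted p = 6.1e-05) and not with scaled FPKM (0.41, 95% interval -0.15 to 0.98), and *Col14a1* was called on neither (1.24 with FPKM, adjusted p = 0.0877, and -0.06 with scaled FPKM, 95% interval -0.67 to 0.55). With the filter, 6 of 7 genes were called higher with FPKM, where 36.6% of all genes were, and 5 of 7 with scaled FPKM, where 1.39% were. *Col8a1*, *Col12a1* and *Col16a1* reached 1 FPKM in the *Acta2-tdT* bleomycin mice alone, and *Col14a1* in these and 2 other mice, so the filtered counts are a description. With no filter it was 7 of 9 against 11.4% of all genes and 5 of 9 against 0.281%. Since saline mice enter each effect, the interaction rests on the same mice as the comparisons above.

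Within collagen VI, the proportions of the 3 genes were compared apart from their levels. *Col6a2* made up 60.2%, 59.0%, 59.1% and 69.2% of the summed FPKM of the 3 genes in *Acta2-tdT* saline mice and 58.3%, 60.0%, 67.0% and 67.3% in *Acta2-tdT* bleomycin mice. In the same mice the share of *Col6a1* was 21.4% ± 2.05 with saline and 16.6% ± 3.01 with bleomycin, and that of *Col6a3* 16.8% ± 3.68 and 20.3% ± 6.09 (SD, n = 4). All 3 shares overlapped between saline and bleomycin, with exact two-sided permutation p = 0.0571 for *Col6a1*, 0.914 for *Col6a2* and 0.486 for *Col6a3*. For *Col6a1*, 3 of the 4 bleomycin mice lay below every saline mouse. In *Pdgfra-tdT* bleomycin mice, whose summed FPKM were low, the share of *Col6a2* ranged from 26.03% to 76.2%. The mean share of *Col6a1* in that line was 15.7% ± 5.67 with saline and 30.2% ± 15.7 with bleomycin (SD, n = 4), in the other direction than in *Acta2-tdT* mice, with overlap and exact two-sided permutation p = 0.171. Such shares do not depend on the scaling, since the factor of a mouse cancels.

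For the related genes *Col12a1* and *Col14a1*, the share of *Col12a1* separated the saline from the bleomycin mice of the *Acta2-tdT* line, but the difference did not pass adjustment. *Col12a1* made up 29.0%, 31.5%, 44.2% and 32.6% of their sum in *Acta2-tdT* saline mice and 87.9%, 82.1%, 70.3% and 72.7% in *Acta2-tdT* bleomycin mice. The groups did not overlap, and the mean was 43.9 percentage points higher with bleomycin (exact two-sided permutation p = 0.0286, the lowest value possible with 4 mice in each group). The saline shares rest on summed FPKM of only 0.591 to 0.904, and *Col12a1* was below the receptor gene median in each of these libraries. Against *Pdgfra-tdT* bleomycin mice, at 3.67%, 36.7%, 62.8% and 53.7%, the difference was 39.0 points with the same p. Of these, mice 6, 7 and 8 had summed FPKM of only 0.315 to 0.598. When only mice with a sum of at least 1 entered, 4 against 1, the difference was 74.6 points. Neither the 43.9 nor the 39.0 points passed Benjamini-Hochberg adjustment over the 20 share comparisons (adjusted p = 0.286). This design could reach that only if many shares separated fully. *Col8a1* made up 83.3% to 97.8% of the collagen VIII sum in *Acta2-tdT* saline mice and 90.8% to 98.6% with bleomycin, and 0 of the 20 comparisons had an adjusted p under 0.05, while 2 had an unadjusted p under 0.05.

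**Figure D5:**
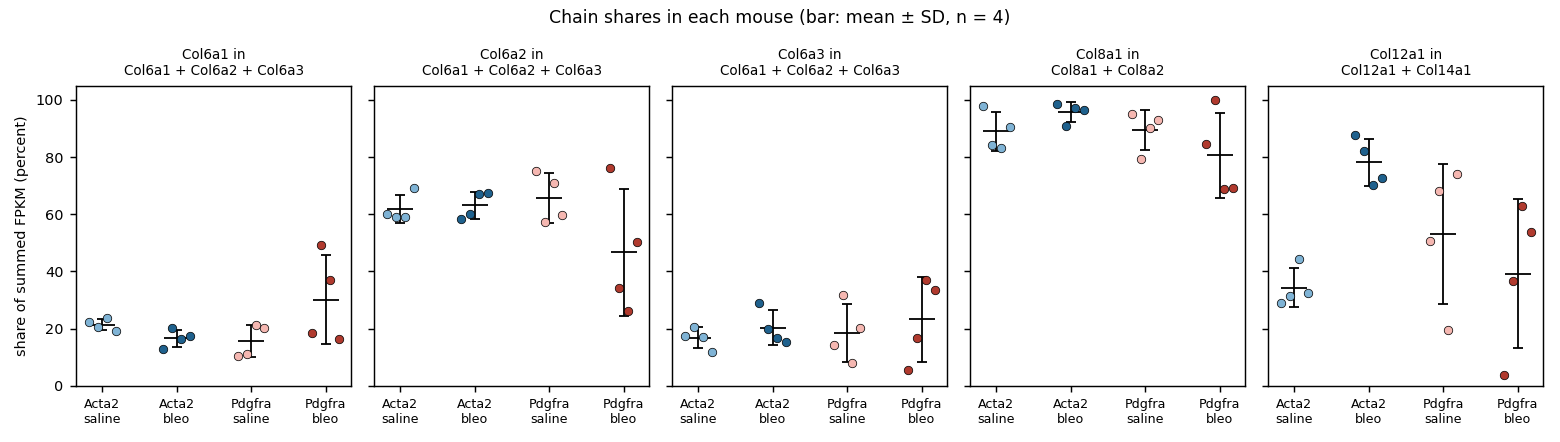
Share of 1 gene in the summed FPKM of its chain partners or relative, in percent, for each mouse (points), with the mean ± SD of 4 mice (bars). The *Acta2-tdT* groups overlap in the 3 collagen VI panels and in the collagen VIII panel and are apart in the *Col12a1* panel, and the *Pdgfra-tdT* bleomycin mice spread most.

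Together the 9 genes took 0.0176% to 0.0228% of the protein-coding FPKM in *Acta2-tdT* saline mice and 0.107% to 0.189% in *Acta2-tdT* bleomycin mice. In *Pdgfra-tdT* mice they took 0.00469% to 0.0103% with saline and 0.00317% to 0.0115% with bleomycin. Among the 44 collagen genes, however, their share was lower with bleomycin: 30.8% to 38.3% of all collagen FPKM in *Acta2-tdT* saline mice and 20.01% to 23.4% with bleomycin, with no overlap. In *Pdgfra-tdT* mice it was 18.5% ± 1.75 with saline and 12.4% ± 3.15 with bleomycin (SD, n = 4), and the groups overlapped, at 16.3% to 20.6% and 9.56% to 16.7%. Other collagens thus made up more of the total in the bleomycin mice. In *Acta2-tdT* bleomycin mice the order of the mean levels, which FPKM give per length, was *Col6a2* (326 ± 191 FPKM), *Col6a3* (93.8 ± 34.2), *Col6a1* (82.7 ± 46.6), *Col16a1* (25.7 ± 10.1), *Col12a1* (11.2 ± 2.50), *Col8a1* (9.98 ± 3.20), *Col14a1* (3.28 ± 1.83), *Col13a1* (0.782 ± 0.152) and *Col8a2* (0.377 ± 0.200; SD, n = 4). The neighbours *Col6a3* and *Col6a1*, *Col12a1* and *Col8a1*, and *Col13a1* and *Col8a2* overlapped in this order, and the other neighbours did not.

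The other fibrillar collagens form the fibrils that collagens XII, XIV and XVI decorate. The counts of the lists below stand beside 24.5% of all genes called higher and 32.5% called lower with scaled FPKM for bleomycin in *Acta2-tdT* mice. With scaled FPKM, 7 of their 11 genes were tested for bleomycin in *Acta2-tdT* mice and 6 were called higher and 0 lower, with a median log2 difference of 3.0 beside -0.01 for all genes. Of these 7, 4 were under 1 FPKM in every saline mouse and so passed the filter only through the bleomycin mice, where they were high, which makes the count a description. The same held for 1 of 4 basement membrane collagen genes tested, 2 of 2 other non-fibrillar genes, 4 of 10 partners, 6 of 9 receptor genes and 11 of 24 processing genes. *Col1a1* went from 2.34 ± 0.394 to 89.4 ± 24.6 scaled FPKM (log2 difference 4.72, SE 0.28, adjusted p = 1.3e-05) and *Col1a2* from 3.61 ± 0.405 to 81.1 ± 12.9 (4.14, SE 0.24, adjusted p = 1.2e-05), both by more than any of the 9 genes on this scale. *Col5a1* and *Col5a3*, chains of the minor fibrillar collagen V, differed by 2.52 and 2.18. Of the 8 basement membrane collagen genes 4 were tested and 4 called higher, with *Col4a2* at 2.02, *Col4a1* at 1.54, *Col15a1* at 1.0 and *Col18a1* at 0.58. Of the 16 other non-fibrillar collagen genes 2 were tested and *Col7a1*, the anchoring fibril collagen, was called higher (0.77, adjusted p = 9.6e-05).

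Other genes of the lists make products that bind or process these collagens. Of 16 partners in microfibrils and on fibrils, 10 were tested for bleomycin in *Acta2-tdT* mice with scaled FPKM, 9 were called higher and 0 lower (median 2.19). *Fn1*, fibronectin, went from 0.591 ± 0.0957 to 25.2 ± 4.91 scaled FPKM (4.02, adjusted p = 6.1e-06), *Postn*, periostin, from 7.53 ± 1.36 to 58.7 ± 8.64, *Dcn*, decorin, from 17.1 ± 5.02 to 50.7 ± 10.8, and *Fbln1*, fibulin 1, from 2.02 ± 0.583 to 3.95 ± 1.07. Of 11 collagen receptors and uptake genes 9 were tested, 4 were called higher and 2 lower (median 0.25). The integrin β1 gene *Itgb1* (1.62) and the endocytic receptor gene *Mrc2* (1.0) rose. *Antxr1*, a receptor that binds collagen VI (-0.60, SE 0.17, adjusted p = 0.014), and the integrin α1 gene *Itga1* (-0.39, SE 0.15, adjusted p = 0.0442) fell with scaled FPKM and rose with FPKM, where all 9 were called higher beside 70.4% of all genes. Of 28 genes of collagen synthesis and processing 24 were tested, 20 were called higher and 1 lower (median 1.38). The collagen chaperone gene *Fkbp10* (3.01), the procollagen C-proteinase enhancer gene *Pcolce* (2.87) and the prolyl hydroxylase gene *P4ha1* (0.41) rose, while *Pcolce2*, at 4.60 ± 0.218 and 1.17 ± 0.246 scaled FPKM, fell by 1.37 with scaled FPKM and rose with FPKM.

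Between the lines with bleomycin, 7 of 7 tested fibrillar collagen genes, 10 of 10 partners, 18 of 24 processing genes, 6 of 9 receptor genes, 2 of 4 basement membrane collagen genes and 1 of 2 other non-fibrillar genes were called higher in *Acta2-tdT* mice with scaled FPKM, beside 17.2% of all genes, and 0 of any list lower. These counts are a description too: 3 of the 7, 3 of the 10, 7 of the 24, 4 of the 9, 2 of the 4 and 2 of the 2 genes were under 1 FPKM in every *Pdgfra-tdT* bleomycin mouse. *Col1a1* (5.29) and *Col1a2* (5.27), *Postn* (5.14), biglycan (*Bgn*, 4.67), *Pcolce* (4.18) and *Fkbp10* (3.50) had the largest differences of their lists, and *Col27a1* (0.56), *Matn2* (0.70), *Fbln1* (1.23), *Adamts14* (0.63) and *Plod2* (1.15) the smallest of those called. Of the receptors, *Itgb1* differed by 1.90, the discoidin domain receptor *Ddr2* by 1.51, *Itga11* by 0.48 and *Ddr1* by 0.38. *Col18a1* (1.12), *Col15a1* (0.80), *Col5a3* (2.41) and *Col7a1* (0.83) were called as well. With saline and scaled FPKM, the called genes of these lists were *Bgn* (1.99, SE 0.42, adjusted p = 0.0388) and *Pcolce2* (1.61, SE 0.23, adjusted p = 0.00629), both higher in *Acta2-tdT* mice. With FPKM, 3 of the 4 partners and 1 of the 4 processing genes tested were called higher. Over all genes 2.72% were called higher with FPKM and 3.02% with scaled FPKM. In *Pdgfra-tdT* mice 0 to 4 genes of each list were tested for bleomycin and limma called 0, with 0 of them at an unadjusted p under 0.05 on either scale.

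Genes with the pattern most like each member over the 16 mice were looked for among 10364 nuclear protein-coding genes, by the root mean square difference of centred log2(scaled FPKM + 1). The nearest to *Col6a1* were *Angptl2* (0.30), *Efemp2* (0.31) and *Dbn1* (0.32), beside a spread of *Col6a1* about its own mean of 1.28. *Col6a2* (spread 1.83) was nearest to *Thbs1* (0.32), *Pcolce* (0.33) and *Fstl1* (0.37), and *Col6a3* (spread 1.40) to *Thbs2* (0.28), *Ckap4* (0.30) and *Chpf* (0.31). For *Col16a1* (spread 0.82) they were *Tgfb2* (0.19), *Fam114a1* (0.21) and *Loxl1* (0.23), and for *Col12a1* (spread 0.46) *Mrc2* (0.13), *Cdh11* (0.15) and *Col7a1* (0.15). *Col8a1* (spread 0.41) was nearest to *Hddc2* (0.16), *Adamts8* (0.17) and *Ankra2* (0.18), and *Col14a1*, with a spread of 0.26, to *Sipa1l1*, *Vps4b* and *Golga3* (0.13 to 0.14), which is less of a likeness relative to its spread.

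For 7 of the 9 genes, those with a promoter in the RefSeq table for GRCm38.p6, the 250 bases before the start in that table were searched. The search was for 6 motifs on both strands. The motifs were TATAAA (the TATA box), CCAAT (the CCAAT box), GGGCGG (a GC box) and TGANTCA (an AP-1 site). GGAATG (a TEAD site) and the CArG box, the site of serum response factor, were also searched. GGGCGG was in at least 1 window of *Col6a2*, *Col8a1*, *Col8a2* and *Col16a1*, beside 32.7% of 32851 promoters, and *Col8a1* and *Col8a2* had 4 matches each. CCAAT was in the window of *Col16a1* (33.8% of promoters) and TATAAA in that of *Col13a1* (12.4%), at -237 to -232 from the start. TGANTCA was in that of *Col6a1* (6.75%) and GGAATG in 1 of the 2 windows of *Col6a2* (12.6%). The start used for these last 2 windows lies inside the gene bounds given above. Of their 250 bases, 124 in *Col6a1* and 226 in *Col6a2* fall within the gene, and so do the TGANTCA and GGAATG matches. No CArG box was found in these windows (1.47% of promoters), and the window of *Col6a3* held none of the 6. Windows are shown as examples of genes that rose with bleomycin in *Acta2-tdT* cells on both scales (*Col6a2* and *Col16a1*) or with FPKM (*Col8a1*), with matches in capitals, 5′ to 3′ on the gene's strand. They are chr10:76623631-76623880 on the minus strand, chr4:130047590-130047839 on the plus strand and chr16:57754738-57754987 on the minus strand.
Col6a2: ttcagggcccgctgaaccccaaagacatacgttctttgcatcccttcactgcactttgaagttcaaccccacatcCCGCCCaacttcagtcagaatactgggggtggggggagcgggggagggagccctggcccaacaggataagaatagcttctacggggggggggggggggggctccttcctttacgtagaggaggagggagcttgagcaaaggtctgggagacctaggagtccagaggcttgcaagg
Col16a1: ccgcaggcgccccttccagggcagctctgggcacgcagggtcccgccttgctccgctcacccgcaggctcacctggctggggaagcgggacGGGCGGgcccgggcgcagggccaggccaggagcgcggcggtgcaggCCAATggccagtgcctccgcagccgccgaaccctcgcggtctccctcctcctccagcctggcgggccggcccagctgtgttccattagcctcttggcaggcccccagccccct
Col8a1: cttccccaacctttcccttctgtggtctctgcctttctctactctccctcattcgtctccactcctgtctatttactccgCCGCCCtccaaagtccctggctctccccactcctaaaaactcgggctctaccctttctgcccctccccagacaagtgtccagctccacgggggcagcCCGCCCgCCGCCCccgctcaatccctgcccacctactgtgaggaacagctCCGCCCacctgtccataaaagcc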

How the data were processed

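Gene expression was measured in sorted tdTomato-positive lung cells of 16 mice. The authors aligned SmartSeq2 reads with TopHat2 2.1.1 and Bowtie2 to mm10 (GRCm38) and computed FPKM per gene, with lower and upper bounds, with Cufflinks 2.1.1 (tools per the labels); each deposited table of FPKM holds 1 mouse. Rows of the same gene were summed (49534 rows, 49452 genes), and 15 genes with a failed or too deep status in any mouse were left out of the tests. No pair of mice had identical values. Scaled FPKM are FPKM multiplied so that the nuclear protein-coding sum of every mouse is 51979. FPKM give no read counts, so the sequencing depth of each mouse is unknown.

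Tests used limma 3.58.1 in R 4.3.3 (lmFit, eBayes with trend) on log2(value + 1), over all genes with 1 FPKM or more in 4 or more of the mice compared. Genes with a Benjamini-Hochberg adjusted p under 0.05 were called. A fold on this scale understates the change of low genes. The labels do not say whether mice came from separate litters or days. Shares were compared with exact two-sided permutation tests. The fits were tested on simulated data. Alternatives were no filter or a filter at a mean of 5 FPKM, a pseudocount of 0.1, sample quality weights, quantile normalization or another scaling target, 1 fit of all 16 mice, the replicate block and leaving out mice. Named genes were the 9 members, *Acta2* and *Pdgfra* as the check of the labels, the 2 largest and the 2 smallest differences among called genes of each list, and the 3 nearest genes of each member with a mean of 1 FPKM or more. Members and gene lists were chosen with earlier results of these data known. The planned search of protein sequences was made on coding sequences of GENCODE transcripts instead. For positions, the annotation of GRCm38 was used; 7 of the 9 genes had the same start and end in the deposited tables, and *Col12a1* and *Col16a1* ended elsewhere at one side. Python 3.11.15, pandas 2.3.3, NumPy 2.4.6, SciPy 1.17.1 and matplotlib 3.10.9 were used.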

Additional observations from a re-analysis of the deposited data

Results flagged for a closer look

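In 4 of 56 groups of 4 mice tested (the 9 genes and the shares in each group), 1 mouse lay far from the other 3 by Dixon's criterion, applied to log2(FPKM + 1) for the genes and to percentages for the shares; chance gives about 1 in 20. In *Pdgfra-tdT* bleomycin mouse 5, *Col6a2* was at 10.6 FPKM against 0.115 to 0.445 FPKM in the other 3 mice, and *Col6a3* at 0.765 FPKM against 0.142 to 0.218 FPKM. In *Pdgfra-tdT* saline mouse 3, *Col14a1* was at 1.44 FPKM against 0.101 to 0.197 FPKM. In *Acta2-tdT* saline mouse 4, *Col6a2* made up 69.2% of the collagen VI sum against 59.0% to 60.2%.

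The effect of bleomycin differed between the lines, by the interaction in limma, for 6 of the 7 genes tested with FPKM: 4.65 for *Col6a1*, 5.78 for *Col6a2*, 5.42 for *Col6a3*, 2.56 for *Col8a1*, 3.39 for *Col12a1* and 3.96 for *Col16a1*. With scaled FPKM it differed for 5: 2.14 for *Col6a1*, 3.36 for *Col6a2*, 2.82 for *Col6a3*, 1.24 for *Col12a1* and 1.46 for *Col16a1*. Over all genes tested the interaction was called higher for 36.6% with FPKM and for 1.39% with scaled FPKM. Of the 7 genes, *Col8a1*, *Col12a1* and *Col16a1* passed the filter through the *Acta2-tdT* bleomycin mice alone, so the counts are a description.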

How the results depend on the processing

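The number of member genes called changed by more than 1.5 times in 1 comparison, the lines with saline, where 0 of 2 were called. There 2 were called with sample quality weights on either scale, where 2204 (2132 scaled) of all 8153 genes were called higher against 222 (246 scaled) without weights, and 0 to 2 when mice were left out in turn. Leaving out 1 mouse gave 6 to 7 called between the lines with bleomycin (6 scaled), 7 for bleomycin in *Acta2-tdT* mice (5 scaled) and 6 to 7 for the interaction (5 scaled). Under the same omissions the genes called higher over all tested ranged from 7852 to 9106 of 11995 (1200 to 3462 scaled), from 8643 to 8856 of 12523 (2500 to 3091 scaled) and from 4898 to 8169 of 16605 (144 to 496 scaled). The highest of the first and last of these ranges, on both scales, came without *Pdgfra-tdT* bleomycin mouse 5. Leaving out both *Pdgfra-tdT* saline mouse 3 and bleomycin mouse 5, an alternative chosen after seeing the data, gave 7 for the interaction (5 scaled), *Col14a1* being the added gene (1.36, adjusted p = 0.0103). The genes called higher over all 16605 then went from 6074 to 8022 with FPKM and from 231 to 656 with scaled FPKM. *Col14a1* was also called in the interaction with sample quality weights (1.67, adjusted p = 0.000204) and without *Pdgfra-tdT* bleomycin mouse 5 (1.63, adjusted p = 0.00827).

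With scaled FPKM the sign of *Col14a1*, not called there, was not stable in 2 comparisons when 1 mouse was left out. Between the lines with bleomycin it ranged from -0.052 to 0.197, at -0.0036 without *Acta2-tdT* bleomycin mouse 7 and at -0.052 and -0.0065 without *Pdgfra-tdT* bleomycin mouse 7 or 8, and for the interaction it ranged from -0.277 to 0.0929, at 0.0233, 0.0428 and 0.0929 without *Pdgfra-tdT* saline mouse 2 or 4 or bleomycin mouse 5. For bleomycin in *Acta2-tdT* mice it stayed negative, from -0.152 to -0.040. Its call between the lines with FPKM was lost with no filter (adjusted p = 0.0904), with quantile normalization (0.115) and without *Acta2-tdT* bleomycin mouse 8 (0.0501) or *Pdgfra-tdT* bleomycin mouse 7 or 8 (0.0508 and 0.051). *Col8a1* between the lines, scaled, was lost with a mean FPKM of at least 5 (adjusted p = 0.0528). *Col6a1* in the scaled interaction was lost with a pseudocount of 0.1 (2.63, adjusted p = 0.0614) and with scaling to a larger sum (2.66, adjusted p = 0.0761). The causes were not tested. The share of *Col12a1* between the lines with bleomycin was 74.6 points higher when only mice with a summed FPKM of at least 1 entered, 4 against 1. A mean FPKM of at least 5 left no member to test for the lines with saline or for bleomycin in *Pdgfra-tdT* mice.

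Mice of the 2 lines share replicate numbers, but deviations of same-numbered mice correlated at -0.31 to 0.16, so the numbers were not taken as pairs. With the replicate block 0 member genes were called between the lines with saline and 7 (6 scaled) with bleomycin. Over all genes, 34 of 8153 (88 scaled) were then called higher with saline and 8502 of 11995 (1398 scaled) with bleomycin. The unknown depth limits the low values, above all in *Pdgfra-tdT* mice.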
